A study of Mus musculus with 9 samples.

Results

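Cadherins, claudins, immunoglobulin adhesion molecules and the cytoplasmic proteins that anchor them were examined in B16, a cultured melanoma line of mouse origin. The members were the protein-coding genes whose symbol named a cadherin or protocadherin, a claudin, a nectin, a Cadm or junctional adhesion molecule, an ICAM, VCAM, NCAM, L1CAM, ALCAM or MCAM, a catenin of the alpha or delta type, plakoglobin or a zonula occludens protein. This gave 109 of the 21676 genes of the count table. RNA was sequenced in 9 libraries: 3 from B16 cells carrying the hairpin shAD4-1, 3 from cells carrying the hairpin shAD4-2 and 3 from cells carrying a control hairpin, spelled shCotrol in the labels. The series is about ADGRL4, an adhesion G protein-coupled receptor, in tumour dormancy, and the design text describes both hairpin lines as knockdown derivatives with biological replicates. The 3 groups shared the parental line and the serum-containing medium. Whether a line was 1 clone or a pool is not given in the sources used here. Adgrl4 itself was not analysed here, so the knockdown was not checked.

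Cadherins bind cadherins on neighbouring cells through calcium-dependent extracellular repeats, and their tails are tied to actin through catenins. Claudins and junctional adhesion molecules build tight junctions, which zonula occludens proteins connect to the cytoskeleton. Immunoglobulin adhesion molecules bind each other without calcium, and some bind integrins. In skin, melanocytes are held to keratinocytes by E-cadherin, and its replacement by N-cadherin, together with the appearance of MCAM, L1CAM and ALCAM, is a known mark of melanoma. Clustered protocadherins, best known from neurons, are switched on in combinations from a tandem array of promoters.

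With either hairpin the adhesion RNA of these cells differed from control in 3 main ways. Mcam, the melanoma cell adhesion molecule, was 3.33-fold higher with shAD4-1 and 4.19-fold higher with shAD4-2. F11r, which encodes junctional adhesion molecule A, was 11-fold higher with each hairpin, from a low level in control cells. The clustered protocadherins were lower: 12 of the 17 that could be tested fell with shAD4-1 and 12 of 17 fell with shAD4-2, while 0 rose with either. Of all tested genes 32.3% fell and 32.7% rose with shAD4-1, and 34.8% fell and 34.2% rose with shAD4-2; 2 of the 17, Pcdhb11 and Pcdhb19, passed the filter on low counts through the control group only. Cdh2, encoding N-cadherin and the most abundant cadherin, did not pass the test in either comparison, and Cdh1, encoding E-cadherin, stayed at a few reads in each library. Both comparisons used the same 3 control libraries, so they are not independent of each other. In bulk RNA, fewer cells with a transcript and less of it per cell cannot be told apart.

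Library totals were 35.8 to 36.9 M reads with shAD4-1, 31.3 to 36.4 M with shAD4-2 and 31.5 to 36.4 M in control. The 8 melanocyte lineage markers (Mlana, Pmel, Tyr, Tyrp1, Dct, Mitf, Sox10 and Mc1r) were all detected and summed to 9929 to 10142, 10767 to 11773 and 11203 to 12826 CPM (counts scaled to the TMM-adjusted library size) in shAD4-1, shAD4-2 and control libraries. Singly, 8 passed the test as lower with shAD4-1, beside 32.3% of all tested genes. With shAD4-2, 3 were lower and 2 higher, beside 34.8% and 34.2%. Mc1r fell most (log2 fold change -1.55 and -1.42). Pmel fell with shAD4-1 (-0.26) and rose with shAD4-2 (0.46). Endothelial, leukocyte and keratinocyte markers summed to at most 0.283 CPM in any library. The count table held 4 fibroblast markers (Col1a1, Col1a2, Pdgfra and Lum). They summed to 10.4 to 12.2 with shAD4-1 and 12.4 to 14.0 with shAD4-2, against 5.08 to 7.10 CPM in control. Col1a2 (log2 fold change 2.62 and 3.08) and Col1a1 (0.70 and 0.92) were higher. Pdgfra did not pass the test (0.23 and 0.05, edgeR adjusted p = 0.334 and 0.843), and Lum had 1 read over all libraries. Reads of the 13 mitochondrially encoded genes made up 3.62 to 3.81% of shAD4-1, 3.60 to 3.89% of shAD4-2 and 2.30 to 2.61% of control libraries. Control library 1 stood apart from the other control libraries: the chi-square per degree of freedom over genes was 12.4 and 18.1 against them, while those 2 differed by 3.44. The part that the fibroblast markers, the mitochondrial share and this library have in the results was not tested, and values without control library 1 are given where they change the call of a named member.

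Levels of different genes are compared as FPKM, read counts scaled for gene length and library size, and levels of 1 gene between libraries as CPM. Averaged over the 9 libraries, 12 members reached at least 10 FPKM, 16 lay at 1 to 10 FPKM and 81 lay under 1 FPKM, 60 of them under 0.1 FPKM. The members together took 0.272 to 0.273% of all reads with shAD4-1, 0.271 to 0.278% with shAD4-2 and 0.242 to 0.246% in control. Mcam alone made up 20.9 to 21.2% of the member reads with shAD4-1 and 26.1 to 26.7% with shAD4-2, against 6.84 to 8.07% in control. The order at the top therefore differed between groups. With the hairpins Mcam led, at 168 ± 1.02 FPKM for shAD4-1 and 212 ± 4.72 FPKM for shAD4-2 (SD, n = 3 each), ahead of Cadm4 at 80.9 ± 0.400 and 85.4 ± 2.00 FPKM and of Ctnna1 at 75.8 ± 0.425 and 73.3 ± 2.03 FPKM. In control cells Cadm4 had 71.2 ± 8.10, Ctnna1 59.9 ± 2.40 and Mcam 52.6 ± 4.72 FPKM (SD, n = 3), and the libraries of Cadm4 and Ctnna1 overlapped.

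**Figure D1:**
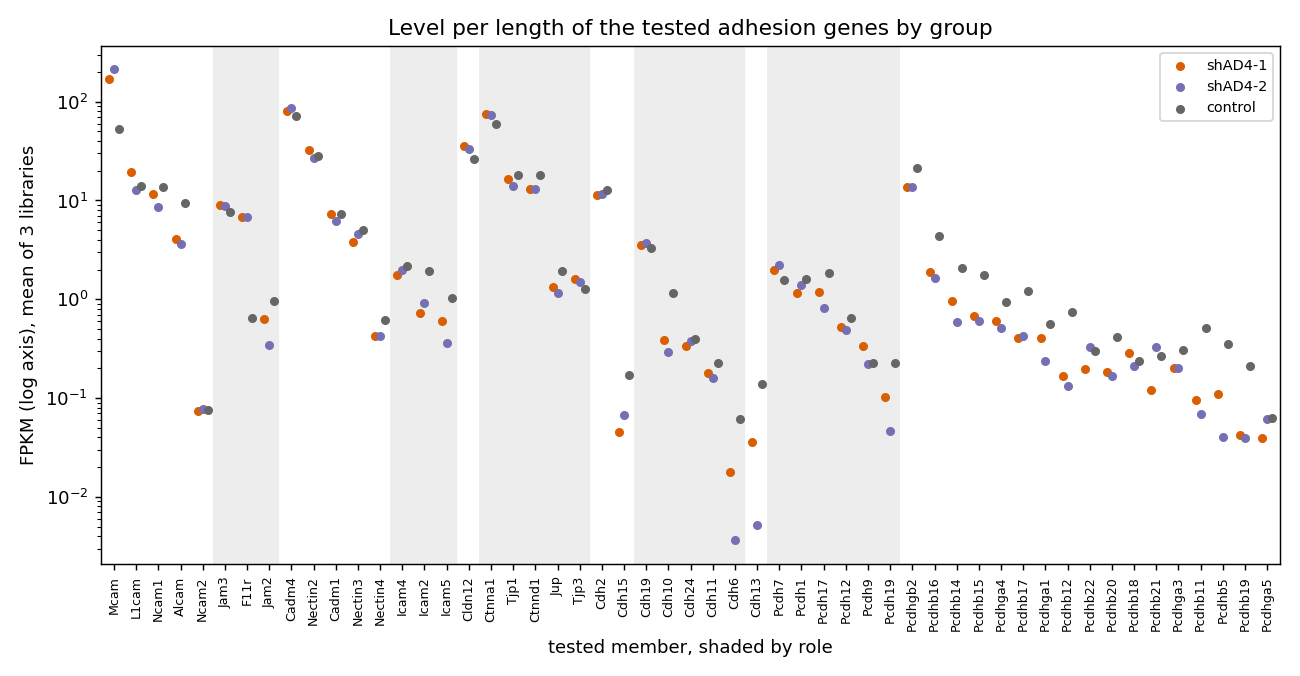
Mean FPKM over 3 libraries of 53 of the 54 tested members on a log axis, 1 point per group, with members ordered and shaded by role; no error is drawn. Mcam stands at 168 FPKM with shAD4-1 and 212 FPKM with shAD4-2, against 52.6 FPKM in control, and F11r at 6.82 and 6.81 FPKM, against 0.645 FPKM.

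A gene was tested where enough libraries passed a floor of 0.279 CPM, which 54 of the 109 members passed; the other 55 had at most 83 reads over the 9 libraries. Of the tested members, 45 reached the floor in every library of all 3 groups and 5 (Pcdhb11, Pcdhb19, Cdh6, Cdh13 and Cdh15) in the control group only, so those 5 could hardly have been found higher with a hairpin. With shAD4-1, 39 of 54 passed an adjusted p of 0.05 (edgeR's quasi-likelihood test, Benjamini-Hochberg over 13807 genes), 11 higher and 28 lower; of all tested genes 65.0% passed, 32.7% higher and 32.3% lower. With shAD4-2, 35 of 54 passed, 8 higher and 27 lower, beside 69.0% of all tested genes, 34.2% higher and 34.8% lower. The share that passed was thus near that of all genes in both comparisons. At least 2-fold changed with shAD4-1 were 2 members upward and 17 downward, beside 5.99% and 6.20% of all tested genes, and with shAD4-2 2 upward and 18 downward, beside 6.39% and 8.34%; most of these falls were in genes under 1 FPKM. The median log2 fold change of the tested members was -0.47 in each, beside -0.01 over all genes in each. Among the 28 members with a mean of at least 1 FPKM, a cut-off chosen after the data were seen, the split was more even: 10 rose and 13 fell with shAD4-1, and 8 rose and 13 fell with shAD4-2. Of all genes above that level, 35.8% rose and 34.5% fell with shAD4-1, and 38.1% rose and 35.9% fell with shAD4-2. The share called was 82.1% of these members with shAD4-1 and 75.0% with shAD4-2, beside 70.4% and 74.1% of genes. At least 2-fold lower were 5 of the 28 with each hairpin (17.9%), beside 3.45% of genes with shAD4-1 and 4.64% with shAD4-2, and 2 were at least 2-fold higher (7.14%), beside 3.35% and 4.03%.

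**Figure D2:**
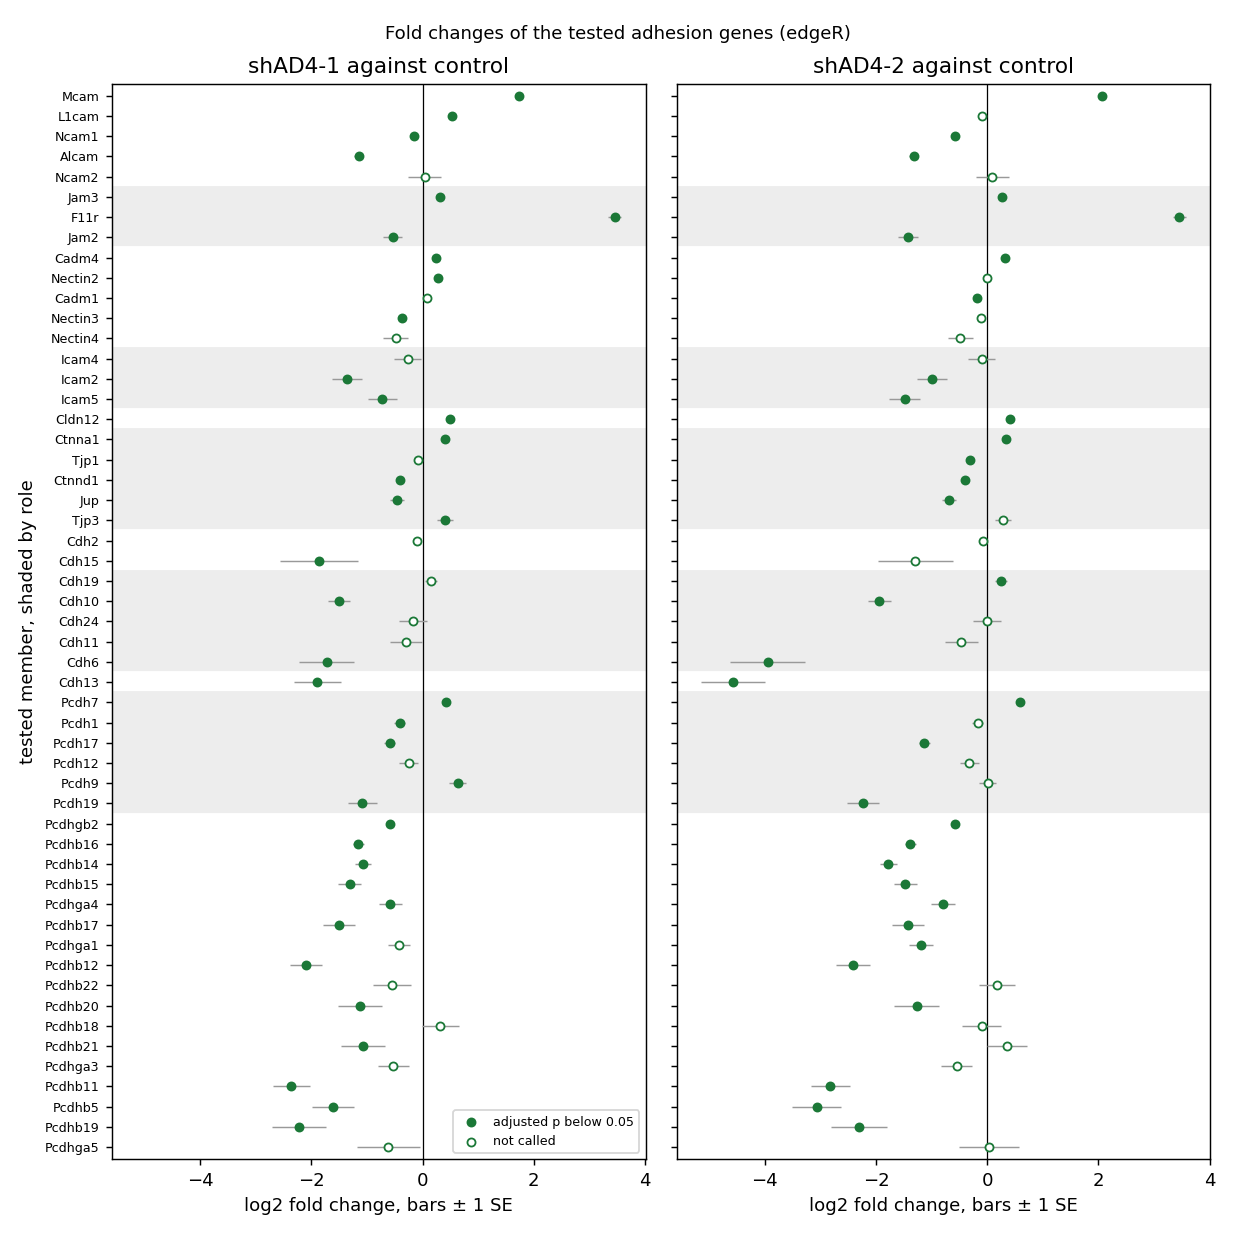
Log2 fold change over control of 53 of the 54 tested members, shaded by role, shAD4-1 in the left panel and shAD4-2 in the right, with bars of 1 SE and filled points for an edgeR adjusted p below 0.05. F11r and Mcam lie farthest to the right, at 3.46 and 1.73 for shAD4-1 and at 3.45 and 2.07 for shAD4-2, and the clustered protocadherins at the bottom lie mostly left of 0.

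Among the neural-type and melanoma immunoglobulin molecules, Mcam was both the most abundant and the most changed. It encodes a surface receptor also called CD146 that melanoma cells gain as they become invasive. Mcam had 581, 587 and 580 CPM with shAD4-1 and 732, 752 and 719 CPM with shAD4-2, against 192, 171 and 163 CPM in control. Every shAD4-2 library lay above every shAD4-1 library, and both hairpins lay above control. The log2 fold change was 1.73 (SE 0.05, edgeR adjusted p = 9.54e-16) for shAD4-1 and 2.07 (SE 0.05, edgeR adjusted p = 7.35e-17) for shAD4-2, and the difference between the hairpins was 0.33 (edgeR adjusted p = 4.22e-05). An antisense gene, Gm10687, overlaps exons of Mcam, and strand use in the counting is not given, so a share of these reads could be its own.

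Alcam, encoding the activated leukocyte cell adhesion molecule that binds itself and CD6, moved the other way. It had 19.5, 21.5 and 21.7 CPM with shAD4-1 and 16.8, 20.2 and 18.8 CPM with shAD4-2, against 40.8, 49.0 and 48.8 CPM in control. All 6 hairpin libraries lay below the control libraries. Alcam fell 2.21-fold with shAD4-1 (log2 fold change -1.15, edgeR adjusted p = 6.04e-10) and 2.49-fold with shAD4-2 (-1.32, edgeR adjusted p = 9.14e-11).

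L1cam and Ncam1, 2 neural adhesion molecules, separated the hairpins. L1cam had 115, 113 and 112 CPM with shAD4-1 and 72.4, 78.0 and 71.4 CPM with shAD4-2, against 69.8, 82.3 and 83.4 CPM in control. It rose with shAD4-1 (0.53, edgeR adjusted p = 2.07e-07), while shAD4-2 libraries overlapped control (-0.09, edgeR adjusted p = 0.188); without control library 1 the value for shAD4-2 was -0.15 and passed. Exons of L1cam overlap those of Arhgap4 on the same strand. Ncam1 had 121, 120 and 118 CPM with shAD4-1 and 89.0, 90.7 and 88.0 CPM with shAD4-2, against 115, 140 and 146 CPM in control. It fell with shAD4-2 (-0.59, edgeR adjusted p = 1.92e-07), below every control library. With shAD4-1 its libraries lay within the control range, and a call of -0.16 (edgeR adjusted p = 0.0318) was lost without control library 2 or 3 and without any 1 of the shAD4-1 libraries. Ncam2, its relative, had under 2 CPM in every library and did not pass in either comparison.

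The junctional adhesion molecules are small immunoglobulin proteins of tight junctions. F11r had 18.8, 17.4 and 15.4 CPM with shAD4-1 and 17.2, 16.5 and 17.7 CPM with shAD4-2, against 1.57, 1.47 and 1.64 CPM in control. The hairpin groups overlapped each other and stood far above control. The log2 fold change was 3.46 (SE 0.12, edgeR adjusted p = 2.04e-14) for shAD4-1 and 3.45 (SE 0.12, edgeR adjusted p = 1.89e-14) for shAD4-2. Jam3, the most abundant of the family at 9.00 ± 0.211, 8.82 ± 0.446 and 7.57 ± 0.501 FPKM in shAD4-1, shAD4-2 and control (SD, n = 3 each), rose by 0.31 and 0.27 on the log2 scale (edgeR adjusted p = 0.000308 and 0.000792). Jam2 had 2.95, 2.78 and 3.94 CPM with shAD4-1 and 1.86, 1.62 and 1.74 CPM with shAD4-2, against 4.68, 4.39 and 4.96 CPM in control. It fell with both hairpins (-0.54 and -1.42, edgeR adjusted p = 0.00987 and 1.61e-06) and was lower with shAD4-2 than with shAD4-1 (-0.89, edgeR adjusted p = 0.00188). The call for shAD4-1 was lost without shAD4-1 library 2.

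**Figure D3:**
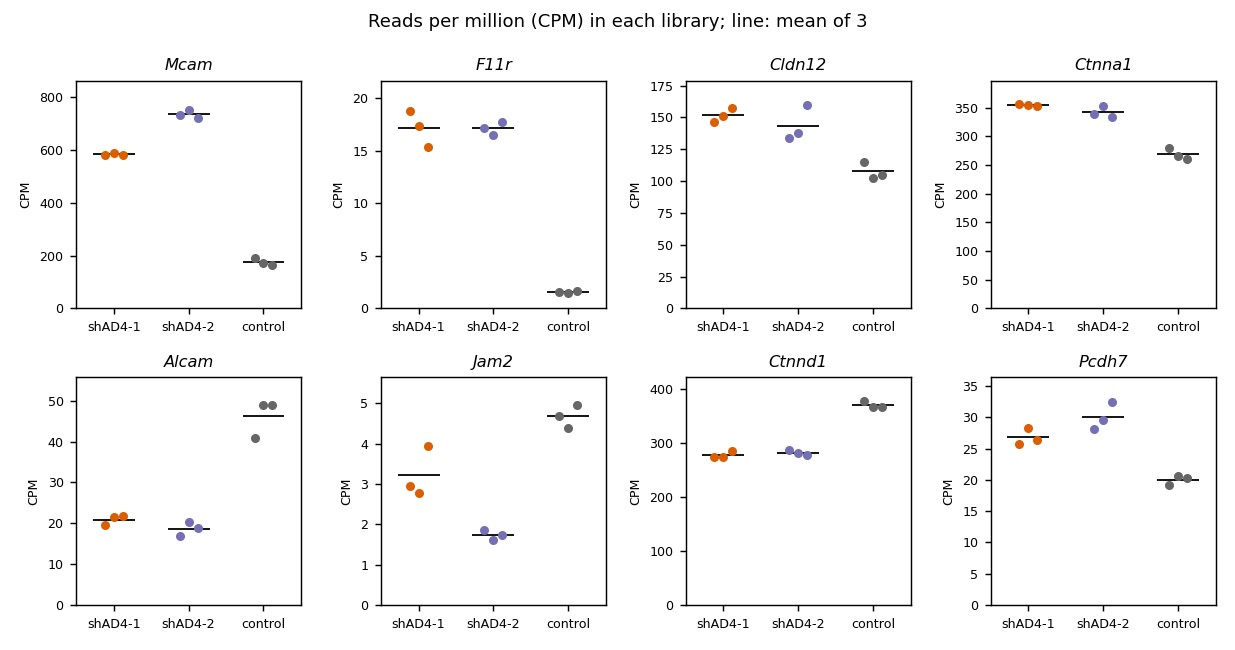
CPM in each library for members that moved with the hairpins, 1 point per library, with a line at the mean of 3 and axes from 0. For F11r the hairpin libraries lie at 15.4 to 18.8 CPM and the control libraries at 1.47 to 1.64 CPM; for Alcam the hairpin libraries lie at 16.8 to 21.7 CPM and the control libraries at 40.8 to 49.0 CPM.

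The promoters of the 2 strongest rises and of Alcam, the most abundant immunoglobulin molecule that fell at least 2-fold, are printed to show the sequence around their starts. They are RefSeq sequences of build GRCm38.p6, 250 bases before to 50 bases after the annotated start, while the deposited counts used GRCm39. Letters for 3 motifs were searched on both strands: GGAATG, the core bound by TEAD partners of YAP1; TGACGTCA, the palindrome bound by CREB; and CAGGTG, the E-box bound by SNAI and ZEB repressors, which reads CACCTG on the other strand. Capitals mark the matches.
F11r, chr1:171437311-171437610, plus strand: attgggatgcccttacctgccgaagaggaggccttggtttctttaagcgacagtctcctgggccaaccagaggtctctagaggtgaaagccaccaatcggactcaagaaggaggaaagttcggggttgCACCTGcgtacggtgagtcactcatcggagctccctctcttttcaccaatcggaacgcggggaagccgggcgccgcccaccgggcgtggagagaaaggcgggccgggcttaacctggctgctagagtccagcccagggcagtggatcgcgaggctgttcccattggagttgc
Mcam, chr9:44134408-44134707, plus strand: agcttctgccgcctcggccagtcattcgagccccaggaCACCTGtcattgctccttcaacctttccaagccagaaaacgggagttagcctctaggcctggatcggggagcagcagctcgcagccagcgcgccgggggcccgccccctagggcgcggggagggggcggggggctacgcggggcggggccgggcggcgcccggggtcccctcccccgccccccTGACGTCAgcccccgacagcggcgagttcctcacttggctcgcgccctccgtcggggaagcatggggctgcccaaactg
Alcam, chr16:52453032-52453331, minus strand: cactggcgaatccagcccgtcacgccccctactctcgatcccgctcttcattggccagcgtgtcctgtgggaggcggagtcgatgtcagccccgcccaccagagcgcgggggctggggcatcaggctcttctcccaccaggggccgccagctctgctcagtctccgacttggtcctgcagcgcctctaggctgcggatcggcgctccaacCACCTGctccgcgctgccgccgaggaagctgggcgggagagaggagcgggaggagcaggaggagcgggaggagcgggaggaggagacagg

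The E-box letters began at position -122 of F11r, -212 of Mcam and -40 of Alcam relative to the start. The CREB palindrome began at -29 of Mcam, and the TEAD core was not in these 3 windows. Of 32851 promoters of this length, 20.2% held the E-box, 1.79% the CREB palindrome and 14.7% the TEAD core. Of the 57 promoters listed for 44 of the members, 29.8%, 5.26% and 14.0% held them. A gene that rose and a gene that fell thus carried the same E-box letters, and a match is a description of the sequence only.

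Nectins and Cadm proteins are immunoglobulin molecules that form early contacts between cells. Cadm4 led them and had 177, 176 and 177 CPM with shAD4-1 and 188, 190 and 181 CPM with shAD4-2, against 131, 151 and 166 CPM in control. The control libraries were the spread ones, and all lay below the hairpin libraries (0.24 and 0.32, edgeR adjusted p = 0.00133 and 9.45e-05). Cadm1, a tumour suppressor in several carcinomas, had 184, 185 and 178 CPM with shAD4-1 and 160, 154 and 145 CPM with shAD4-2, against 171, 177 and 172 CPM in control. It fell slightly with shAD4-2 (-0.17, edgeR adjusted p = 0.000966) and did not pass with shAD4-1 (0.07, edgeR adjusted p = 0.121). Nectin3 had 41.0, 41.3 and 44.2 CPM with shAD4-1 and 49.0, 52.1 and 51.0 CPM with shAD4-2, against 54.0, 53.5 and 56.3 CPM in control. The fall with shAD4-1 passed (-0.37, edgeR adjusted p = 4.34e-06) and that with shAD4-2 did not (-0.11, edgeR adjusted p = 0.0706). Of the 5 tested genes of this group, 2 rose and 1 fell with shAD4-1, and 1 rose and 1 fell with shAD4-2. Among all tested genes 32.7% rose and 32.3% fell with shAD4-1, and 34.2% rose and 34.8% fell with shAD4-2.

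ICAMs and VCAM1 are the ligands that leukocyte integrins bind. They were sparse: Icam4, the highest, had 1.76 ± 0.257 FPKM with shAD4-1 and 1.97 ± 0.605 FPKM with shAD4-2, against 2.19 ± 0.411 FPKM in control (SD, n = 3 each), and did not pass (edgeR adjusted p = 0.355 and 0.746). Icam2 had 1.41, 1.08 and 1.02 CPM with shAD4-1 and 2.09, 1.39 and 0.999 CPM with shAD4-2, against 3.08, 2.38 and 3.54 CPM in control. It fell with both (-1.36 and -0.99, edgeR adjusted p = 0.000222 and 0.00266). Icam5 had 2.54, 1.13 and 2.26 CPM with shAD4-1 and 1.03, 1.16 and 1.32 CPM with shAD4-2, against 2.68, 3.99 and 3.11 CPM in control. It fell with both (-0.72 and -1.48, edgeR adjusted p = 0.0196 and 0.000109), the call for shAD4-1 being lost without control library 2 or shAD4-1 library 2. The difference between shAD4-2 and shAD4-1 did not pass (-0.76, edgeR adjusted p = 0.0563), but did so without control library 1 (edgeR adjusted p = 0.0306) or shAD4-1 library 2 (-1.04, edgeR adjusted p = 0.00872). Icam1, the inducible ligand of LFA-1, had 1 read in the 3 shAD4-1 libraries together and 0 in those of shAD4-2, against 12 in control. The control reads were 2, 4 and 6, so each control library held more than any hairpin library. This gave a ratio of 0.0812 (exact 95% interval 0.0019 to 0.549, counting error only) for shAD4-1, and a level at least 3.73-fold lower for shAD4-2 at a floor of 3 reads over the group. Vcam1 had 7, 4 and 8 reads in the 3 groups and was not tested. The Icam4, Icam5 and Icam1 exons overlap the antisense gene Gm47079.

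Among classical cadherins, N-cadherin RNA was near control in both hairpin lines. Cdh2 had 116, 118 and 114 CPM with shAD4-1 and 109, 121 and 121 CPM with shAD4-2, against 121, 123 and 126 CPM in control. The log2 fold changes were -0.09 (SE 0.04, edgeR adjusted p = 0.0766) and -0.08 (SE 0.04, edgeR adjusted p = 0.135), and a value of -0.10 passed for shAD4-1 without control library 1. Cdh1 had 13, 6 and 6 reads over the 3 libraries of shAD4-1, shAD4-2 and control, and Cdh3, encoding P-cadherin, had 0, 2 and 0 reads. Neither was tested, and no rise or fall was detectable at this depth. Cdh15, the M-cadherin of muscle, had 1, 12 and 1 reads with shAD4-1 and 6, 11 and 2 reads with shAD4-2, against 9, 21 and 21 reads in control; a call for shAD4-1 (-1.86, edgeR adjusted p = 0.0276) was lost under 4 of the 9 removals of a library. The value for shAD4-2 did not pass (-1.29, edgeR adjusted p = 0.0952), but did so without control library 1 (-1.54, edgeR adjusted p = 0.0465) or shAD4-2 library 2 (-1.99, edgeR adjusted p = 0.0469).

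Type II cadherins are the divergent relatives of these. Cdh19, known from Schwann cells and the neural crest lineage, was the most abundant, with 67.5, 67.3 and 71.3 CPM with shAD4-1 and 69.2, 72.0 and 79.0 CPM with shAD4-2, against 79.2, 56.0 and 50.2 CPM in control. The first control library was as high as the highest hairpin libraries and the other control libraries were below them all. The value for shAD4-1 did not pass (0.16, edgeR adjusted p = 0.21), and that for shAD4-2 (0.25, edgeR adjusted p = 0.0468) was lost without control library 2 or 3 and without any 1 of the 6 hairpin libraries. Without control library 1 the log2 fold change for shAD4-1 was 0.38 and passed. Cdh10, a cadherin known from brain, had 1.99, 1.28 and 1.95 CPM with shAD4-1 and 1.14, 1.26 and 1.48 CPM with shAD4-2, against 4.99, 4.84 and 5.04 CPM in control. It fell with both (-1.51 and -1.94, edgeR adjusted p = 2.06e-06 and 1.31e-07), and the groups did not overlap. Cdh6, known from kidney and neural crest, had 9, 7 and 6 reads with shAD4-1 and 1, 3 and 0 reads with shAD4-2, against 16, 35 and 21 reads in control (-1.73 and -3.95, edgeR adjusted p = 0.00514 and 4.31e-05). Cdh13 encodes T-cadherin, which is held in the membrane by a lipid anchor, and had 10, 24 and 10 reads with shAD4-1 and 4, 1 and 1 reads with shAD4-2, against 31, 63 and 68 reads in control. It fell with both (-1.89 and -4.56, edgeR adjusted p = 0.000629 and 1.31e-06) and was lower with shAD4-2 than with shAD4-1 (-2.67, edgeR adjusted p = 0.00679). Cdh13, Cdh6 and Cdh15 entered the test only through their control level, so a fall against control was the likely outcome for them.

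The protocadherins outside the clusters moved in both directions, as did all tested genes. Pcdh7, the highest of them, had 25.8, 28.3 and 26.4 CPM with shAD4-1 and 28.1, 29.6 and 32.4 CPM with shAD4-2, against 19.2, 20.6 and 20.3 CPM in control, and rose with both (0.42 and 0.58, edgeR adjusted p = 3.39e-05 and 5.98e-07). The difference between shAD4-2 and shAD4-1 did not pass (0.16, edgeR adjusted p = 0.0862), but did so without control library 1 (0.17, edgeR adjusted p = 0.0428). Pcdh17 had 13.3, 11.7 and 12.6 CPM with shAD4-1 and 7.20, 9.83 and 8.96 CPM with shAD4-2, against 19.0, 19.6 and 18 CPM in control. Its 3 groups were fully separated, in the order shAD4-2, shAD4-1, control from low to high, with log2 fold changes over control of -0.59 for shAD4-1 and -1.13 for shAD4-2 (edgeR adjusted p = 3.73e-05 and 1.61e-08). Pcdh19, a partner of N-cadherin in neurons, had the same order, with 1.16, 1.05 and 0.991 CPM for shAD4-1 and 0.417, 0.647 and 0.387 CPM for shAD4-2, against 2.03, 2.46 and 2.31 CPM in control (-1.09 and -2.23, edgeR adjusted p = 0.00127 and 1.97e-06). Of the 6 tested, 2 rose and 3 fell with shAD4-1, and 1 rose and 2 fell with shAD4-2. The shares of all tested genes were 32.7% up and 32.3% down with shAD4-1, and 34.2% up and 34.8% down with shAD4-2.

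The clustered protocadherins make up 43 of the members, all on chromosome 18, and 17 of them were tested. Pcdhgb2 dominated, with 63.2, 66.7 and 61.2 CPM with shAD4-1 and 63.2, 64.4 and 64.7 CPM with shAD4-2, against 101, 93.5 and 93.0 CPM in control (-0.59 and -0.58, edgeR adjusted p = 4.14e-09 and 4.4e-09). Pcdhb16 followed, with 10.0, 9.90 and 10.6 CPM with shAD4-1 and 7.81, 8.86 and 9.41 CPM with shAD4-2, against 25.4, 22.0 and 20.6 CPM in control (-1.15 and -1.38, edgeR adjusted p = 4.78e-09 and 4.61e-10). For both genes every hairpin library was below every control library. The gamma genes share their constant exons, so how the authors' counting divided those reads between Pcdhgb2 and its neighbours cannot be told from the counts.

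The beta genes each have a single coding exon. Pcdhb11 and Pcdhb19 entered the test only through the control group, where they were high, so a fall was the likely outcome for them. Pcdhb11 had 0.276, 0.397 and 0.385 CPM with shAD4-1 and 0.278, 0.291 and 0.193 CPM with shAD4-2, against 1.66, 1.78 and 2.01 CPM in control (-2.36 and -2.82, edgeR adjusted p = 4.2e-06 and 8.83e-07). Pcdhb12 fell by 2.10 and 2.42 on the log2 scale (edgeR adjusted p = 4.15e-06 and 1.1e-06) and Pcdhb19 by 2.22 and 2.30 (edgeR adjusted p = 0.000668 and 0.000562). Pcdhb14, Pcdhb15 and Pcdhb17 fell with both hairpins too, with log2 fold changes of -1.07, -1.31 and -1.50 for shAD4-1 and of -1.77, -1.47 and -1.42 for shAD4-2. Pcdhb20 passed at -1.13 and -1.27 (edgeR adjusted p = 0.0187 and 0.0103), the first being lost without control library 2 or shAD4-1 library 3. Pcdhb5 had 0.524, 0.369 and 0.303 CPM with shAD4-1 and 0.111, 0.226 and 0.0967 CPM with shAD4-2, against 1.20, 1.05 and 1.42 CPM in control (-1.61 and -3.06, edgeR adjusted p = 0.000875 and 6.18e-06). Of the 12 tested beta genes, 10 fell with shAD4-1 and 9 with shAD4-2; of the 5 tested gamma genes, 2 and 3 fell. Of all tested genes 32.3% and 34.8% fell, and 5 gamma genes are too few to set against these shares. Their log2 fold changes ran from -0.61 to -0.42 with shAD4-1 and from -1.19 to 0.04 with shAD4-2. Summed over all gamma genes, most of the reads being of Pcdhgb2, the libraries had 66.9 to 72.3 CPM with shAD4-1. The sums were 68.9 to 69.8 CPM with shAD4-2 and 102 to 111 CPM in control. Pcdhb21 passed only with shAD4-1 (-1.07, edgeR adjusted p = 0.024), a call lost without control library 2 or shAD4-1 library 1 or 2, and Pcdhga1 only with shAD4-2 (-1.19, edgeR adjusted p = 9.32e-05).

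**Figure D4:**
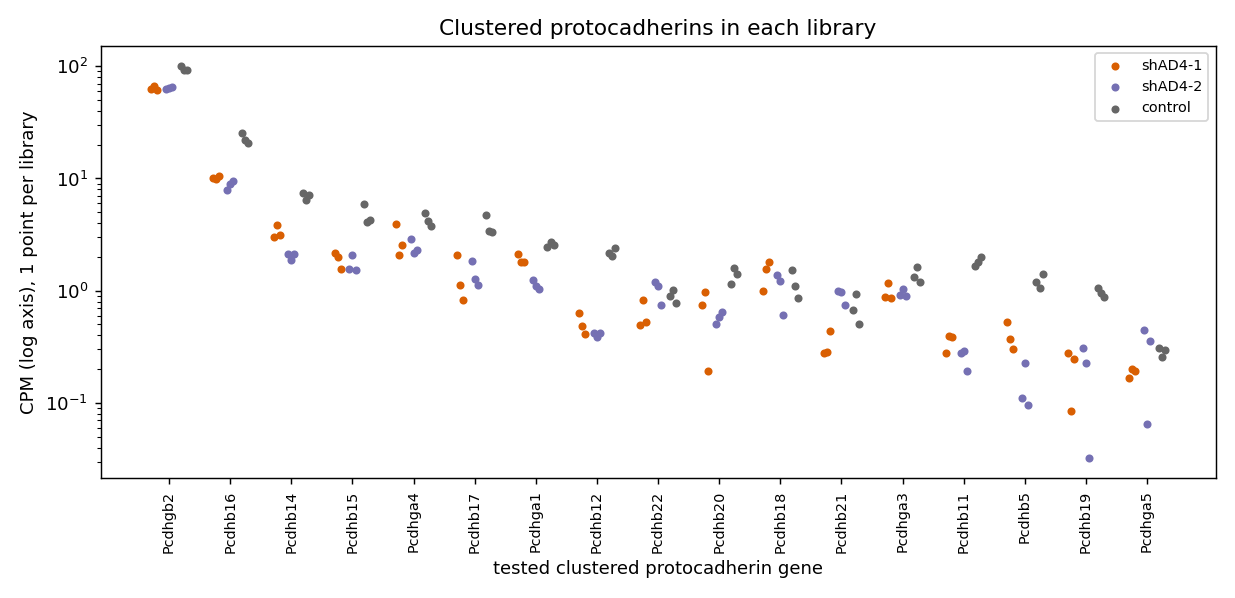
CPM of the 17 tested clustered protocadherins in each library, on a log axis, 1 point per library, in falling order of mean FPKM. Pcdhgb2 lies at 61.2 to 66.7 CPM with the hairpins and 93.0 to 101 CPM in control. Most genes show the control points above the hairpin points, and Pcdhb18, Pcdhb21, Pcdhb22, Pcdhga4 and Pcdhga5 show a hairpin group that overlaps control.

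Summed over all 43 genes, tested or not, the clusters had 88.0 to 94.5 CPM in shAD4-1 libraries and 87.7 to 88.5 CPM in shAD4-2 libraries, against 149 to 167 CPM in control. Without Pcdhgb2 the sums were 26.8 to 29.6 and 23.0 to 24.5 CPM, against 56.0 to 65.2 CPM. The 26 genes too low to test held 25 to 36 reads per library with shAD4-1 and 18 to 24 with shAD4-2, against 81 to 99 in control, so the untested genes lay the same way as the tested ones. The median log2 fold change of the 17 tested genes was -1.07 for shAD4-1 and -1.27 for shAD4-2. For the 20 tested genes that flank the clusters it was -0.23, with 4 higher and 10 lower, and -0.09, with 3 higher and 7 lower. For the 331 other tested genes of chromosome 18 it was -0.15 and -0.20, and for 4683 genes of like read totals -0.12 and -0.18.

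The only claudin that could be tested was Cldn12, which lacks the usual tail motif that binds zonula occludens proteins. It had 147, 151 and 157 CPM with shAD4-1 and 134, 138 and 159 CPM with shAD4-2, against 115, 103 and 105 CPM in control, and rose with both (0.50 and 0.42, edgeR adjusted p = 6.05e-07 and 4.87e-06). Of the 9 other claudins, Cldn15, a pore-forming claudin of the intestine, stood out after the values were seen, with 6, 9 and 3 reads with shAD4-1 and 7, 10 and 2 reads with shAD4-2, against 0, 1 and 0 reads in control. The ratios were 17.5 (exact 95% interval 2.77 to 731) and 20.4 (3.24 to 848), covering counting error only. Cldn23 lay the same way, with 5, 2 and 3 reads with shAD4-1 and 3, 2 and 4 reads with shAD4-2, against 0, 0 and 1 reads in control, a ratio of 9.75 (1.39 to 423) for shAD4-1.

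Of the cytoplasmic partners, alpha-catenin and p120-catenin moved apart. Ctnna1, encoding alpha-E-catenin, the link to actin, had 356, 356 and 353 CPM with shAD4-1 and 339, 353 and 335 CPM with shAD4-2, against 280, 266 and 261 CPM in control, and rose (0.40 and 0.35, edgeR adjusted p = 2.49e-08 and 1.36e-07). Ctnnd1, encoding p120-catenin, which holds cadherins at the surface, had 275, 274 and 286 CPM with shAD4-1 and 287, 282 and 277 CPM with shAD4-2, against 378, 366 and 368 CPM in control, and fell (-0.41 and -0.39, edgeR adjusted p = 7.12e-09 and 1.21e-08). Exons of both overlap those of another gene, Lrrtm2 and Gm28635. Jup, encoding plakoglobin of desmosomes and adherens junctions, fell too, with log2 fold changes of -0.46 and -0.69 (edgeR adjusted p = 0.00262 and 7.47e-05). Tjp1, encoding ZO-1, had 138, 149 and 148 CPM with shAD4-1 and 122, 125 and 126 CPM with shAD4-2, against 158, 155 and 148 CPM in control. The fall passed for shAD4-2 (-0.31, edgeR adjusted p = 2.4e-06) and not for shAD4-1 (-0.09, edgeR adjusted p = 0.0778); without control library 3 the value for shAD4-1 was -0.11 and passed.

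Between the hairpins, 17 of the 54 tested members differed, 3 higher and 14 lower with shAD4-2, beside 27.4% of all tested genes, 13.4% higher and 14.0% lower. Above 1 FPKM it was 9 of 28, 2 higher and 7 lower, beside 31.5% of genes. At least 2-fold apart were 1 member upward and 4 downward, beside 0.319% and 1.37% of all tested genes. These 5 lay under 1 FPKM. Among the 28 members above that level, 0 were 2-fold apart upward and 0 downward, beside 0.0644% and 0.405% of genes. The called share was near that of all genes, and 5 members were higher without control library 1. The 3 higher with shAD4-2 were Pcdhb21 (1.43, edgeR adjusted p = 0.0103), Mcam (0.33) and Nectin3 (0.27, edgeR adjusted p = 0.000966). The lowest were Cdh13 (-2.67), Cdh6 (-2.22, edgeR adjusted p = 0.049) and Pcdhb5 (-1.45, edgeR adjusted p = 0.0376), of which Cdh6 and Pcdhb5 lost the call in most removals of 1 hairpin library. Among the abundant members the differences were smaller: L1cam at -0.61 (edgeR adjusted p = 9.85e-07), Ncam1 at -0.42 (edgeR adjusted p = 0.000104), Cadm1 at -0.25 (edgeR adjusted p = 0.000219) and Tjp1 at -0.23 (edgeR adjusted p = 0.00056). Nectin2 and Pcdh9, named after their values were seen, were higher with shAD4-1 than in control (0.28 and 0.63), near control with shAD4-2 (0.01 and 0.01), and lower with shAD4-2 than with shAD4-1 (-0.28 and -0.62, edgeR adjusted p = 0.000758 and 0.00433).

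**Figure D5:**
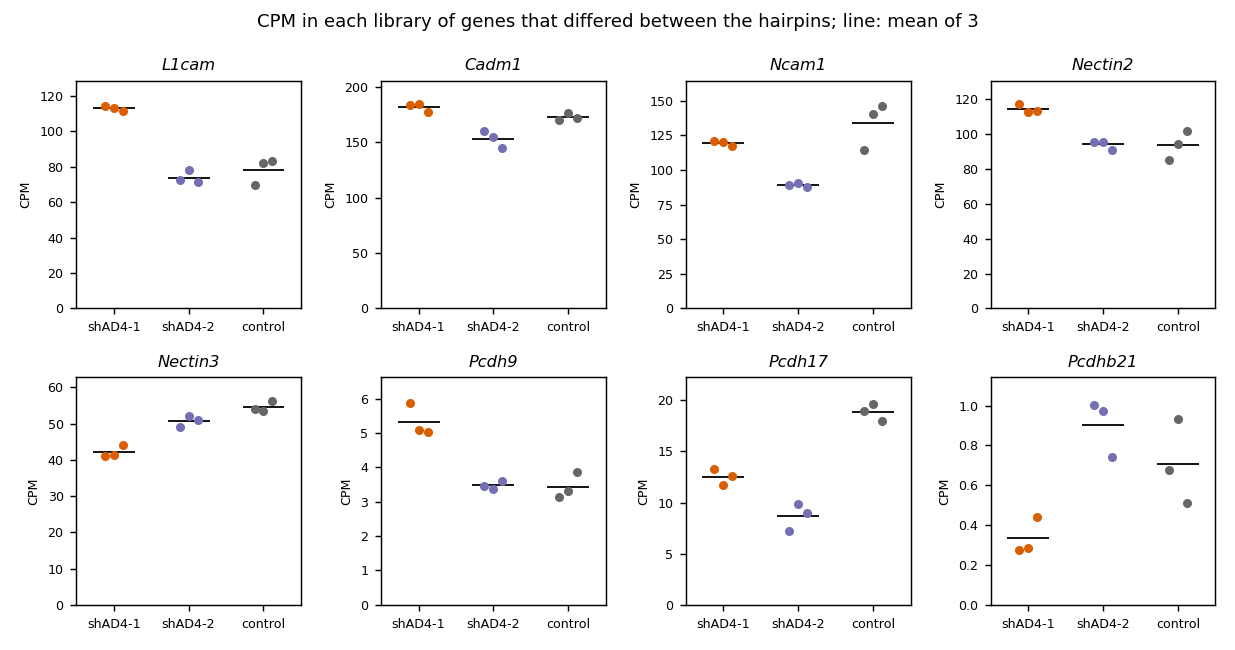
CPM in each library of 8 members that differed between the hairpins, 1 point per library, with a line at the mean of 3 and axes from 0. L1cam lies at 112 to 115 CPM with shAD4-1 and 71.4 to 78.0 CPM with shAD4-2, against 69.8 to 83.4 CPM in control; Pcdh17 steps through all 3 groups without overlap.

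Other genes of the same machinery were counted from lists. Of 22 tested junction partners, 10 rose and 8 fell with shAD4-1, and 10 rose and 7 fell with shAD4-2. The shares called, 81.8% and 77.3%, stand beside 65.0% and 69.0% of all tested genes. All tested partners but Cgn, Cgnl1 and Prkcz had a mean above 1 FPKM, where 70.4% and 74.1% of genes passed. Ctnnb1, encoding beta-catenin, fell slightly, at 929 ± 14.3 and 1012 ± 13.0 CPM with the hairpins, against 1075 ± 3.03 CPM in control (SD, n = 3 each; -0.21 and -0.09, edgeR adjusted p = 1.52e-05 and 0.024). Cingulin genes of tight junctions rose: Cgn had 3.10 ± 0.394 and 3.42 ± 0.519 CPM, against 1.04 ± 0.115 CPM in control (1.57 and 1.71, edgeR adjusted p = 3.41e-06 and 1e-06). Its relative Cgnl1 had 155 and 91 reads, against 2 in control, ratios of 75.5 (exact 95% interval 20.6 to 629) and 48.9 (13.1 to 410). Prkcz, a polarity kinase, fell, with 2.03 ± 0.566 and 1.71 ± 0.423 CPM, against 9.78 ± 0.832 CPM in control (-2.27 and -2.50, edgeR adjusted p = 4.41e-09 and 1.52e-09). Cgn, Cgnl1 and Prkcz were the only tested partners called with at least a 2-fold change, and no rule set beforehand picked them.

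Of 7 tested repressors of E-cadherin and related transcription factors, 2 rose and 1 fell with shAD4-1, and 3 rose and 1 fell with shAD4-2. That is 42.9% and 57.1% called, below the shares of all tested genes. Foxc2 had 77 and 58 reads over the 3 libraries of shAD4-1 and shAD4-2, against 0 in control, at least 25.0-fold and 20.8-fold higher at a floor of 3 reads over the group. It was the only gene of this list called with at least a 2-fold change, and no rule set beforehand picked it. Snai2, the neural crest E-cadherin repressor, did not pass in either comparison (0.20 and -0.18, edgeR adjusted p = 0.108 and 0.16). Of 10 proteases and secretase subunits that cut adhesion molecules, 3 rose and 6 fell with each hairpin, which is 90% called, beside 65.0% and 69.0% of all tested genes. All 10 had a mean above 1 FPKM, and of the tested genes at that level 70.4% and 74.1% passed. Adam10, the main cadherin sheddase, fell, with 164 ± 7.93 and 155 ± 13.7 CPM, against 196 ± 8.74 CPM in control (-0.25 and -0.34, edgeR adjusted p = 0.00054 and 2.43e-05). Of 10 genes for CTCF, cohesin and chromatin repressors of the protocadherin clusters, 5 rose and 3 fell with shAD4-1, and 6 rose and 2 fell with shAD4-2. The share called was 80.0% with each hairpin, beside 65.0% and 69.0% of all tested genes. These 10 genes too had means above 1 FPKM, where 70.4% and 74.1% of genes passed. Smchd1, a repressor of these clusters in mice, rose, with 165 ± 7.17 and 174 ± 9.90 CPM, against 105 ± 1.07 CPM in control (0.66 and 0.73, edgeR adjusted p = 4.36e-10 and 8.11e-11). Setdb1, a histone methyltransferase of the same list, fell, with 55.6 ± 1.59 and 57.6 ± 1.85 CPM, against 68.0 ± 2.68 CPM in control (-0.29 and -0.24, edgeR adjusted p = 3.95e-05 and 0.000269).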

How the data were processed

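Total RNA libraries of 9 cultures were made with the VAHTS Universal V6 kit, per the labels' protocols. Per the submitters' processing notes fastp, HISAT2 and HTSeq were used with build GRCm39; no versions are named, and strand use is not stated in these sources. The authors deposited whole-number read counts per gene and FPKM for the same libraries. Columns are headed Con, KD1 or KD2 with a replicate number, per the file headers; KD1 was taken as shAD4-1 and KD2 as shAD4-2 by number.

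The counts were fitted in edgeR 4.0.16 (R 4.3.3): filterByExpr, TMM scaling, then glmQLFit and glmQLFTest with a group term and all 9 libraries in 1 fit, and Benjamini-Hochberg adjustment over 13807 genes at 0.05. These genes held 99.968% of the reads, and the common biological coefficient of variation was 5.15%. SE is the log2 fold change over the square root of F. P-values rest on the spread between replicates within groups, estimated from all 9 libraries together. Whether it includes spread between separately made lines is not given in the sources used here. Intervals for 1 to 3 reads are exact 95% intervals and cover counting error only.

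The members and gene lists were chosen with earlier results of these data known. No rule fixed which genes outside the members are named from those lists. Members named were those called with at least a 2-fold change over control, the most abundant of each role group, the 3 largest differences between hairpins each way, and general members of each group; any others are said to have been chosen after their values were seen. Results were recomputed with DESeq2 1.42.0, with RLE or upper-quartile scaling, with other filters, on protein-coding genes only, without the third group, with replicate number as a block, with limma 3.58.1 on log2(FPKM + 1) and log2(FPKM + 0.1), and with each library left out. RefSeq and GENCODE M21 tables of GRCm38 gave promoters, gene order and exon overlaps. Genes on the opposite strand also overlap exons of Ncam1, Jam3, Pcdh7, Pcdh19, Nectin2, Vcam1, Pcdhb12 and Pcdhga1. With strand use unknown, a share of those counts could be theirs. Of the tested members, 1 is counted but not reported here by name.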

Additional observations from a re-analysis of the deposited data

Results flagged for a closer look

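In 3 members the hairpins differed from each other while their effects over control had opposite signs. L1cam was lower with shAD4-2 than with shAD4-1 by 0.61 on the log2 scale (log2 difference -0.61, edgeR adjusted p = 9.85e-07), with 71.4 to 78.0 CPM in the 3 shAD4-2 libraries and 112 to 115 CPM in the 3 shAD4-1 libraries. Cadm1 was lower with shAD4-2 as well (log2 difference -0.25, edgeR adjusted p = 0.000219), with 145 to 160 CPM for shAD4-2 and 178 to 185 CPM for shAD4-1. Pcdhb21 was higher with shAD4-2 (log2 difference 1.43, edgeR adjusted p = 0.0103), at 0.741 to 1.00 CPM for shAD4-2 and 0.276 to 0.440 CPM for shAD4-1, and its exons overlap those of Pcdhb22. Over control, L1cam with shAD4-2 (-0.09), Cadm1 with shAD4-1 (0.07) and Pcdhb21 with shAD4-2 (0.36) did not pass the test.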

How the results depend on the processing

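Of the values of named members recomputed under the alternatives, 2152 kept their side of the threshold, 36 gained the call and 55 lost it. Values that changed sign with a call in the main fit or the alternative numbered 0. Sign changes among values called in neither were not counted. Under limma on log2(FPKM + 1) or log2(FPKM + 0.1) with at least 1 FPKM in 3 libraries, which tests 30 members, 17 were lower with shAD4-1, 17 lower with shAD4-2, and 9 differed between hairpins, 7 of them lower. Among all genes in those settings, 70.6 to 70.8% were called with shAD4-1, 74.3% with shAD4-2 and 29.9% between hairpins. Of the called genes, 43.1 to 43.2% were higher with shAD4-1, 44.7 to 44.8% with shAD4-2 and 51.6 to 52.1% between hairpins. Under limma on log2(FPKM + 1) with no filter, 41 of 109 were lower with shAD4-2, and the cause was not tested. In that setting 43.2% of all genes were called with shAD4-2, 43.4% of them higher. With only the groups compared, 5 were higher between hairpins, as they were without control library 1. Leaving out each library gave 34 to 41 called for shAD4-1 (10 to 11 higher, 23 to 30 lower), 35 to 39 for shAD4-2 (7 to 8 higher, 27 to 31 lower) and 14 to 20 between hairpins (3 to 5 higher, 11 to 15 lower); above 1 FPKM the ranges were 21 to 24, 20 to 22 and 9 to 11. Same-numbered libraries correlated at -0.143 to 0.0548 in their deviations, and differently numbered ones at -0.109 to 0.152. No shared effect of the number was seen, and the labels do not say whether it pairs the libraries. With the replicate block 39, 35 and 16 members were called, beside 39, 35 and 17 without it. The 55 untested members are limited by depth: 49 of them had under 30 reads in all.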

Other observations

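Immunoglobulin and leukocyte-type adhesion genes outside the members were counted from a list with 13 tested genes, of which 3 rose and 6 fell with shAD4-1, and 1 rose and 7 fell with shAD4-2. The shares called, 69.2% and 61.5%, are near the 65.0% and 69.0% of all tested genes. Cd47, the ligand of the phagocyte receptor SIRPA, had 45.8 ± 2.69 CPM with shAD4-1 and 34.6 ± 0.701 CPM with shAD4-2, against 90.1 ± 0.689 CPM in control (SD, n = 3 each; -0.98 and -1.38, edgeR adjusted p = 6.44e-12 and 5.92e-14). Ceacam1, a carcinoembryonic antigen relative, had 2.37 ± 0.122 and 2.11 ± 0.614 CPM, against 6.67 ± 0.556 CPM in control (-1.49 and -1.65, edgeR adjusted p = 9.02e-07 and 2.92e-07). Bcam, the Lutheran laminin receptor, rose, with 30.5 ± 1.33 and 34.4 ± 1.96 CPM, against 19.6 ± 3.09 CPM in control (0.64 and 0.80, edgeR adjusted p = 4.31e-06 and 1.81e-07). Igsf8, a tetraspanin partner, differed between the hairpins: it had 196 ± 11.4 CPM with shAD4-1 and 114 ± 2.36 CPM with shAD4-2, against 184 ± 21.0 CPM in control, with log2 fold changes over control of 0.09 (edgeR adjusted p = 0.206) and -0.69 (edgeR adjusted p = 1.83e-08) and a difference of -0.78 between shAD4-2 and shAD4-1 (edgeR adjusted p = 2.01e-07). These genes were picked from the list after their values were seen.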
